A study of Rattus norvegicus with 32 samples.

Results

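The mitochondrial ribosomal proteins were measured by 97 probes for 75 genes, of 45598 probes on the array that are not controls. A probe was a member when its gene name, in either of the 2 annotation versions of the scanner files, was Mrpl or Mrps followed by a digit. This rule uses no measured value, but the members were chosen with earlier results of these data known. Of the genes, 47 encode proteins of the large subunit and 26 proteins of the small subunit. The large subunit includes Mrps30 and Mrps18a, whose names are those of the small one. Mrps21l and Mrps36 were placed in neither subunit, and the protein of Mrps36 is also known as a part of the oxoglutarate dehydrogenase complex. A gene with several probes, which was the case for 17 genes, was reported by the probe with the highest mean over all arrays. The reported probe of 74 genes was well above background on all 32 arrays, and these 74 genes were tested in each sex. The remaining gene, Mrps28, was not tested, since its probe was well above background on 1 male and 1 female array.

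The data are the left ventricles of young adult male and female Wistar rats, collected 20 h after surgery. In each sex, 5 rats had sham surgery, 5 had CLP (cecal ligation and puncture, a model of abdominal sepsis) and received saline, and 6 had CLP and an infusion of landiolol, a selective β1-adrenergic blocker. Every heart had been imaged in vivo and then perfused ex vivo before it was frozen, and each array held the labelled RNA of 1 rat. No genotype or strain difference is given between the groups, and pieces of ventricle hold other cells beside cardiomyocytes.

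The mitochondrial ribosome, built from nuclear-encoded proteins and RNAs of the mitochondrial genome, makes the few respiratory chain subunits that mitochondria encode themselves. Its proteins are made in the cytosol, imported and assembled on the ribosomal RNAs. In the heart, where mitochondria supply most of the ATP, genes of mitochondrial proteins are controlled by nuclear respiratory factors, ETS family factors and the coactivators of the PGC-1 family.

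The promoters of 59 of the 75 genes were found in the RefSeq table of the rat build GRCr8, as the 250 bases before and the 50 bases after each gene's start. Mrpl13, Mrpl15, Mrpl16, Mrpl19, Mrpl21, Mrpl35, Mrpl38, Mrpl43, Mrps12, Mrps21l, Mrps22, Mrps24, Mrps28, Mrps34, Mrps35 and Mrps36 were not among them. Both strands were searched for 6 runs of letters, and each share below is a description of letters and of no binding. The NRF1 core CGCATGCG was in the promoters of 6 members (10.2%), against 1.66% of the 33469 promoters in the table. The ETS core CCGGAAG, which the GABPA protein recognises, was in 21 members (35.6%), against 8.75%. The YY1 core AAGATGGC was in 15 members (25.4%), against 3.17%, and in 11 of the 15 it lay after the start, where the letters ATG inside it can also be a start codon. The E-box CACGTG was in 10.2% of the members against 6.42%, and the GC box GGGCGG in 50.8% against 33.1%. The run ACTACAACT, added to the search after the promoter of Mrpl34 had been read, was in 3 members, Mrpl34, Mrpl42 and Mrpl50 (5.08%), against 0.624%. No run searched for contains another. The same runs were sought in 58 promoters of cytosolic ribosomal proteins and 61 of nuclear-encoded respiratory chain subunits. Gene names were matched more narrowly here than for the families whose differences are given below, and Atp5 genes were left out. The ETS core was in 19 (32.8%) and 16 (26.2%) of these promoters, and the GC box in 32 (55.2%) and 25. The YY1 core was in 5 and 11, the NRF1 core in 1 and 2, the E-box in 5 and 2 and ACTACAACT in 0 and 2. A higher share of ETS cores, YY1 cores and GC boxes than in all promoters was thus not particular to the members.

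The 250 bases before the start are shown for 4 members. Mrpl12 and Mrpl34 are the genes that passed the test for CLP in both sexes, Mrpl32 was the member with the largest positive difference in females, and Mrpl17 holds 2 NRF1 cores. Capitals mark the runs searched for, on either strand. The stretches lie at chr10:106256496-106256745 (plus strand) for Mrpl12, chr16:18186197-18186446 (plus) for Mrpl34, chr1:169575700-169575949 (minus) for Mrpl17 and chr17:55260401-55260650 (plus) for Mrpl32, all in GRCr8 and written 5′ to 3′.
Mrpl12: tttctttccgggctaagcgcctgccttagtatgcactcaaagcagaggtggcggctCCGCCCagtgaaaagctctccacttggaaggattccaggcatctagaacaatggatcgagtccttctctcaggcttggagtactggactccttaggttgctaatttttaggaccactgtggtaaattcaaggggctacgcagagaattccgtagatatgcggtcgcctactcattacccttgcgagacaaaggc
Mrpl34: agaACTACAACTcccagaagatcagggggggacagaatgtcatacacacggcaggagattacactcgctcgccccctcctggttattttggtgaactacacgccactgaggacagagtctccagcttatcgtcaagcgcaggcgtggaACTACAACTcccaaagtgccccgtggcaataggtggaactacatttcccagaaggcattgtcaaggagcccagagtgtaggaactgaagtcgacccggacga
Mrpl17: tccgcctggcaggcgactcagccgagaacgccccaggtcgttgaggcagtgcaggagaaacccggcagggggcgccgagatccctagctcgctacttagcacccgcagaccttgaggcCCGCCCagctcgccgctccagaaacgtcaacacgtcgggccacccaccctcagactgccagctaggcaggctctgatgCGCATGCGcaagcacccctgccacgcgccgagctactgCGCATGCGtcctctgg
Mrpl32: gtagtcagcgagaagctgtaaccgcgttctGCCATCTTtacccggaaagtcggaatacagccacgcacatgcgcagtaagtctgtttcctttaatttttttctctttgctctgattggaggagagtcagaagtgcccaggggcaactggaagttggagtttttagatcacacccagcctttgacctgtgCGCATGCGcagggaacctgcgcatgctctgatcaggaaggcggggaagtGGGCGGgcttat

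In Mrpl12 the only run found was a GC box at position -194, counted from the start to the first base of the run. In Mrpl34 the only run was ACTACAACT, at positions -247 and -102. In Mrpl17 the NRF1 cores were at -54 and -16. In Mrpl32 the NRF1 core was at -61 and the YY1 core at -220. Neither gene that passed the test in both sexes held an NRF1, ETS or YY1 core in these windows, which says only that these letters were not found there. Over the 59 members, the median CLP difference (log2) in males of those with a run and of those without it was -0.10 and -0.18 for the NRF1 core, -0.12 and -0.23 for the ETS core, -0.18 and -0.18 for the YY1 core, -0.05 and -0.19 for the E-box, -0.27 and -0.17 for ACTACAACT and -0.13 and -0.19 for the GC box. In females these medians were, in the same order, -0.21 and -0.17, -0.11 and -0.22, -0.11 and -0.18, -0.01 and -0.19, -0.62 and -0.17, and -0.12 and -0.18. The median of members with an NRF1 core was thus nearer to 0 than that of the others in males and farther from it in females, and no test of a run was made. ACTACAACT was held by only 3 members and was added to the search after the promoter of Mrpl34 had been read. Its median of -0.62 in females is the difference of Mrpl34 itself, so that the choice of the run entered this value.

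To see how sepsis bears on the genes of the mitochondrial ribosome, CLP was compared with sham in each sex. In males 66 of the 74 genes (89.2%) had a lower mean in CLP than in sham and in females 58 (78.4%). The shift was small. The median difference of the members was -0.19 in males and -0.18 in females on the log2 scale of the normalised intensities, where the median of all probes was 0.01 and -0.01. A fold change below is taken from such a difference, and levels were normalised within a sex, so that they are compared within a sex only.

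Mrpl12 and Mrpl34, both large subunit proteins with bacterial counterparts, were lower in CLP in males and in females. They were the members that passed the FDR of 1%, 2 of 74 (2.7%) in each sex. Over all probes, 7.81% passed it in males and 3.63% in females in either direction, and 3.94% and 1.82% passed it as lower. The count in males was 7 with normexp background correction, 9 in the table of the authors and 5 with a trended prior. The share of all probes called under these 3 settings was not determined, so that these counts cannot be set against the shares above. The share with a negative difference stood beside 49.1% of all probes in males and 51.8% in females.

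Mrpl12, whose protein also binds the mitochondrial RNA polymerase, was measured by a probe spotted 10 times on each array, at chr10:109874012-109874071 on the plus strand of build rn4. In males its log2 levels were 15.41, 15.42, 15.48, 15.54 and 15.55 in the sham rats and 14.53, 14.61, 14.72, 14.78 and 14.89 in the CLP rats. All CLP rats were below all sham rats, and the sham rats lay close together. The difference was -0.77 (SE 0.11), or 1.71-fold lower (limma, adjusted p = 1.8e-04). In females the levels were 14.69, 14.94, 14.95, 15.06 and 15.19 in sham and 14.04, 14.05, 14.08, 14.27 and 14.33 in CLP. Again no CLP rat reached the lowest sham rat. The difference was -0.81 (SE 0.15), or 1.75-fold lower (adjusted p = 0.0031).

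Mrpl34, at chr16:18636819-18636878 on the plus strand of rn4, differed in the same direction. In males its levels were 13.60, 13.86, 13.93, 13.94 and 13.94 in sham and 13.01, 13.09, 13.33, 13.34 and 13.36 in CLP, a difference of -0.63 (SE 0.12, adjusted p = 0.0020). In females they were 13.53, 13.63, 13.73, 13.90 and 14.10 in sham and 12.98, 13.02, 13.16, 13.29 and 13.33 in CLP, a difference of -0.62 (SE 0.14, adjusted p = 0.0086). The groups did not overlap in either sex. In females this call was lost in 13 of the 16 fits that left out 1 array, with adjusted p between 0.0077 and 0.025 over all 16, and the arrays concerned came from all 3 groups.

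The male and female arrays were hybridised on 2 slides each, and every group was present on both slides of its sex. The headers of 1 female slide (8 arrays) name another feature extraction protocol than those of the other 24 arrays, so that in females protocol and slide cannot be told apart. With the slide as a term the same number of members, 2, was called in each sex. Within the slides, Mrpl12 differed between CLP and sham by -0.62 and -0.95 in males and by -0.82 and -0.79 in females, and Mrpl34 by -0.51 and -0.73 in males and by -0.48 and -0.77 in females. The place on the slide was less even. All female sham arrays were in the first row of a slide and all female CLP plus landiolol arrays in the second. With the row as a term of the model, Mrpl12 in females was at -0.75 (adjusted p = 0.024) and Mrpl34 at -0.56 (adjusted p = 0.055), so that no member passed the FDR of 1% in female CLP vs sham.

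**Figure D1:**
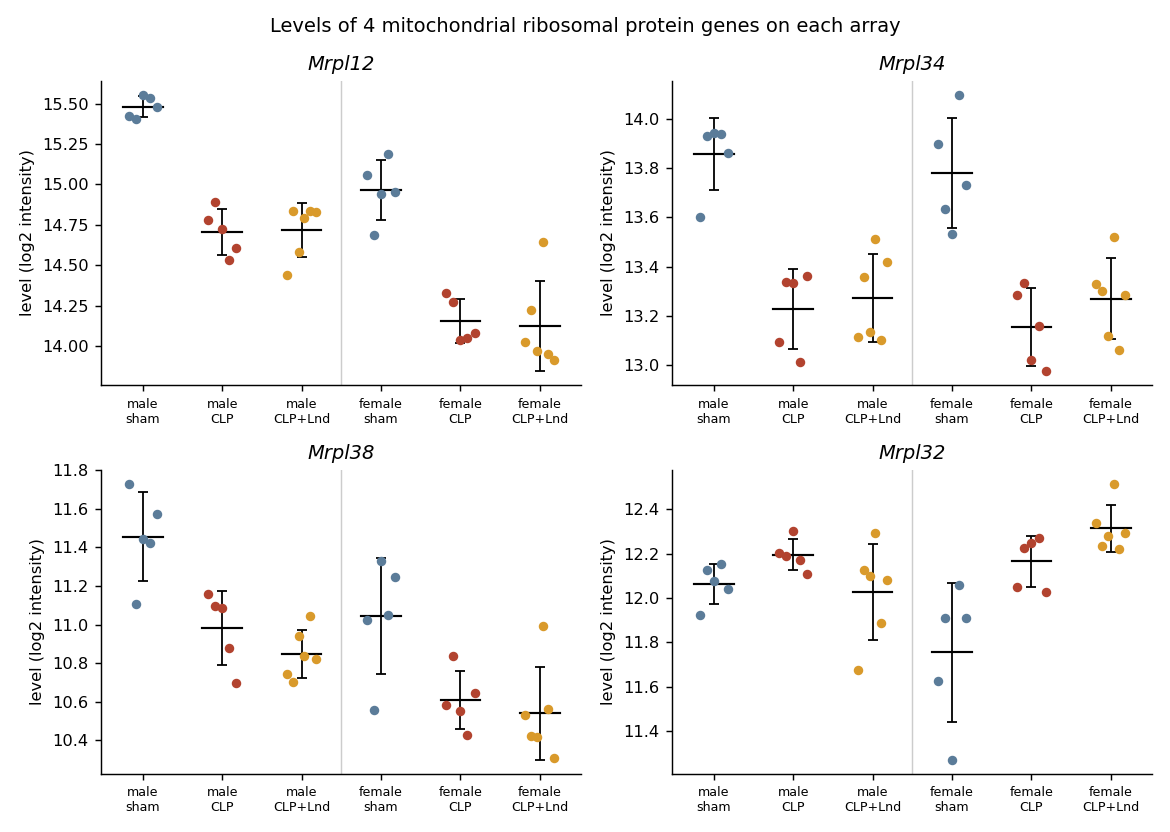
Log2 normalised intensity (y axis) of Mrpl12, Mrpl34, Mrpl38 and Mrpl32 in the 6 groups (x axis), with 1 dot per array and the mean with its SD. For Mrpl12 all CLP and CLP plus landiolol dots lie below all sham dots of the same sex, and for Mrpl32 the female CLP plus landiolol dots lie above the female sham dots.

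At an FDR of 5% the number of lower members was 12 in males (16.2%, against 8.12% of all probes that were lower) and 5 in females (6.76%, against 4.97%). No member was higher at this level in either sex. In males 11 genes (14.9%) had groups that did not overlap, and in females 9 (12.2%), all lower in CLP, where 12.3% and 8.32% of all probes did not overlap in either direction and 6.2% and 4.38% were lower without overlap. Among the genes described next, Mrpl13 and Mrps16 in males and Mrpl47 and Mrps34 in females were named for their small p in the same comparison. The others were chosen after their values were seen. All of these genes are given as values at the 5% level.

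Within the large subunit, 43 of 47 genes had a negative difference in males (median -0.23) and 38 of 47 in females (median -0.19). In males 10 of them were lower at 5%, Mrpl12, Mrpl34, Mrpl13, Mrpl19, Mrpl2, Mrpl20, Mrpl22, Mrpl38, Mrpl45 and Mrpl51. Mrpl13 was at -0.48 (adjusted p = 0.013), Mrpl19 at -0.44 (adjusted p = 0.019) and Mrpl45, whose protein lies at the exit of the ribosomal tunnel near the inner membrane, at -0.47 (adjusted p = 0.022). Mrpl38, a protein of the large subunit with no bacterial counterpart, at chr10:106238769-106238828 on the minus strand of rn4, was at -0.47 (adjusted p = 0.019). Its sham levels in males were 11.11, 11.42, 11.44, 11.57 and 11.73 and its CLP levels 10.70, 10.88, 11.08, 11.10 and 11.16, so that the groups overlapped by the lowest sham rat.

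In females 4 large subunit genes were lower at 5%, Mrpl12, Mrpl34, Mrpl47 and Mrpl51. Mrpl47 had the largest difference of all members in females, -1.06 (SE 0.26, adjusted p = 0.018), or 2.09-fold lower. Its probe spans chr2:118940940-118942962 on the minus strand of rn4, a span far longer than a probe and thus over an intron. Its female levels were 9.59, 9.97, 9.99, 10.27 and 10.35 in sham and 7.81, 8.98, 9.17, 9.31 and 9.58 in CLP. The lowest CLP rat lay more than 1 log2 unit below the next, and the highest CLP rat lay just under the lowest sham rat. In males Mrpl47 was at -0.65 (SE 0.26, adjusted p = 0.11), with overlapping groups.

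Within the small subunit, 21 of 25 genes had a negative difference in males (median -0.13) and 18 of 25 in females (median -0.09). At 5%, Mrps16 was lower in males (-0.38, adjusted p = 0.017) and Mrps34 in females (-0.45, adjusted p = 0.027). Mrps34 in females was at 12.52, 12.56, 12.62, 12.65 and 12.66 in sham and at 12.01, 12.05, 12.08, 12.23 and 12.37 in CLP. Its sham rats were close together and above every CLP rat. In males Mrps34 was at -0.24 (adjusted p = 0.069), also without overlap. The most negative value in males was that of Mrps10, -1.06, which had an SE of 0.59 and an adjusted p of 0.26, with levels from 5.83 to 9.06 over the CLP and sham rats.

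Mrps36, in neither subunit, was lower in males at 5% (-0.50, adjusted p = 0.033) and at -0.23 (adjusted p = 0.47) in females.

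By ancestry, the median difference in males was -0.25 for the 27 large subunit proteins with a bacterial counterpart, -0.21 for the 20 found in mitochondria only, -0.18 for the 15 small subunit proteins tested that have a bacterial counterpart and -0.04 for the 10 that have none. In females these medians were -0.19, -0.19, -0.22 and -0.03. The small subunit proteins without a bacterial counterpart stood nearest to 0 in both sexes. No test of the difference between the classes was made, since the lists were put together with earlier results of these data known.

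A few members had a positive difference, and none of these was called. Mrpl32, whose protein has to be cut by a protease of the inner membrane before it can join the ribosome, was the highest in females. Its female levels were 11.27, 11.63, 11.91, 11.91 and 12.06 in sham and 12.03, 12.05, 12.23, 12.25 and 12.27 in CLP, a difference of +0.41 (SE 0.14, adjusted p = 0.084). The groups overlapped by 1 sham rat. In males Mrpl32 was at +0.13 (adjusted p = 0.49). Mrps27 had the most positive value in males, +0.28 (SE 0.32, adjusted p = 0.64), and +0.38 (adjusted p = 0.59) in females.

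Probes of 1 gene did not always give the same call. Mrpl40 was reported by a probe at -0.24 in males (adjusted p = 0.33), while its 2 other probes were at -0.74 (adjusted p = 9.9e-04) and -0.60 (adjusted p = 0.014). The other probe of Mrps27 was at +0.86 in males (adjusted p = 0.023). Where the probes of a gene differed in sign, as for Mrpl57, Mrps21 and Mrps33 in both sexes, none of them was called. The other probe of Mrps33 lies on the strand opposite to the reported one. Its mean log2 level was 4.72, and it was well above background on 12 male and 11 female arrays. Of the probes of Mrps21, 1 also lies on the opposite strand, at a mean of 5.43.

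Array by array, the mean of the 74 genes was set against the mean of the sham rats of the same sex. In males it was -0.30, -0.04, 0.09, 0.09 and 0.15 in sham and -0.36, -0.33, -0.22, -0.11 and -0.06 in CLP. In females it was -0.24, -0.13, 0.09, 0.13 and 0.14 in sham and -0.54, -0.24, -0.13, -0.05 and -0.04 in CLP. The CLP means were -0.22 ± 0.13 (SD, n = 5) in males and -0.20 ± 0.21 (SD, n = 5) in females, the SD of sham was 0.18 and 0.17, and the groups overlapped in both sexes. The shift of the members as a whole was thus of about the size of the spread between rats of a group.

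This mean moved with the brightness of the array. Over the 32 arrays, its deviation from the group mean had a Pearson r of 0.853 and a Spearman rho of 0.829 with the deviation of the log2 median signal of the array before normalisation (permutation test of 100000 resamples, p = 1e-05 for each, the smallest it can give, and 1.8e-05 after Benjamini-Hochberg adjustment over 9 relations). Without the 2 arrays farthest from the median, r was 0.820, and r was 0.867 in the 16 male arrays and 0.835 in the 16 female arrays. The median signal ranged from 6.23 to 7.31 in male sham, 6.32 to 6.88 in male CLP, 6.11 to 7.04 in female sham and 6.12 to 7.29 in female CLP. With this signal as a term of the model, an alternative chosen after seeing the data, 11 members in males and 4 in females passed the FDR of 1% in CLP vs sham, all lower, and the median difference was -0.17 and -0.18. The share of all probes that passed with this term was not determined. The part of brightness in the shift was not tested beyond this fit.

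**Figure D2:**
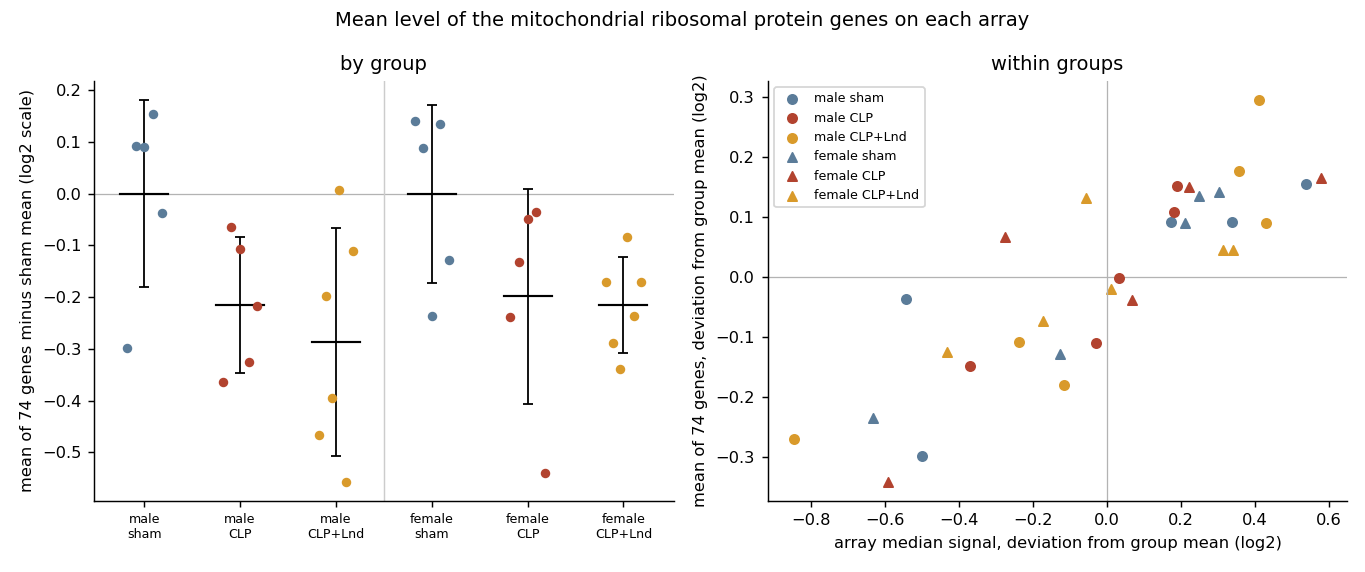
Mean log2 level of the 74 mitochondrial ribosomal protein genes per array, minus the mean of sham of the same sex, by group (left), and its deviation from the group mean against the deviation of the log2 median array signal (right), with 1 dot per array, the mean and SD as lines, and Lnd for landiolol. The groups overlap on the left, with CLP means of -0.22 in males and -0.20 in females, and on the right the dots rise together (r = 0.853 over 32 arrays).

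The members were set beside 2 other families that a cell makes in large amounts. Among the 83 cytosolic ribosomal proteins tested, which build the ribosomes of the cytosol, 80 had a positive difference in males (median +0.19) and 62 in females (median +0.06). Of them, 1 was called higher in males and 7 were higher at 5%, and in females 0 were called and 1 was higher at 5%, with 4 at an unadjusted p under 0.05, all higher. Over all probes in males, 1002 of 25864 were called higher and 2033 were higher at 5%. In females 462 of 25394 probes were called higher, 1066 were higher at 5% and 2647 were higher at an unadjusted p under 0.05. Among the 80 nuclear-encoded subunits of the respiratory chain tested, 75 had a negative difference in each sex, with medians of -0.22 in males and -0.24 in females. Of these, 3 were called lower in males and 11 were lower at 5%, and in females 0 were called, 9 were lower at 5% and 30 had an unadjusted p under 0.05, all lower. Over all probes, 3.94% were called lower and 8.12% were lower at 5% in males. In females these shares were 1.82% and 4.97%, and 3211 of 25394 probes were lower at an unadjusted p under 0.05. The called counts are not read as a result about either family. The median of the mitochondrial ribosomal proteins was thus negative, like that of the respiratory chain, and on the other side of 0 from that of the cytosolic ribosome. No test of the difference between the families was made. The medians of the 3 families kept these signs under all 28 alternatives run in each sex. The correlation of the within-group deviations over the 32 arrays was 0.977 with the respiratory chain subunits and -0.361 with the cytosolic ribosomal proteins.

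**Figure D3:**
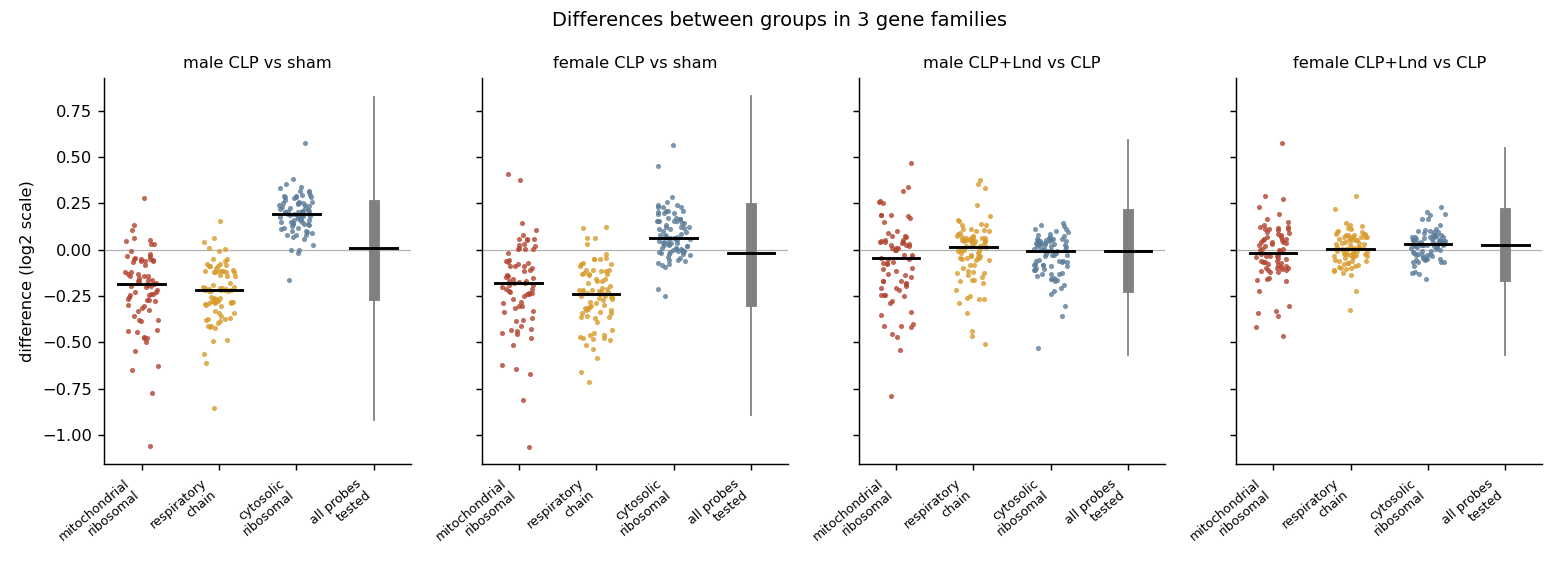
Log2 differences of the mitochondrial ribosomal proteins, the nuclear-encoded respiratory chain subunits, the cytosolic ribosomal proteins and all probes tested, in 4 comparisons. Dots are genes with their median as a line, Lnd is landiolol, and for all probes the median, the middle 50% and the middle 90% are drawn. In CLP vs sham the medians of the mitochondrial ribosomal proteins and respiratory chain subunits lie below 0, at -0.19 and -0.22 in males, and that of the cytosolic ribosomal proteins above it, at +0.19.

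In bulk tissue, fewer cells of a type and less RNA per cell cannot be told apart. All 13 cardiomyocyte markers were well above background on all 32 arrays, and 0 of them were called in CLP vs sham in either sex, with 1 at an unadjusted p under 0.05 in each. Their summed intensity ranged from 3365187 to 3765461 in male sham and from 3211211 to 3615048 in male CLP. This sum is carried by the brightest probes of the array, whose values quantile normalisation makes nearly equal between arrays (the SD of Mb, which encodes myoglobin, was 0 in male sham), and it says nothing on the content of cardiomyocytes. Of 12 leukocyte markers 9 were tested, and Ms4a1 was at background on all of the arrays. In each sex 7 of the 9 had a positive CLP difference, with 6 called higher in males and 3 in females. Over all probes, 1002 of 25864 and 462 of 25394 were called higher. The other 2 had a negative difference, the lowest at -0.14 in males and -0.23 in females. The summed intensity of the 12 leukocyte markers ranged from 11232 to 15719 in male sham and from 30311 to 44634 in male CLP, and from 15953 to 22476 and 30561 to 49674 in the females. Of 6 fibroblast markers, 3 were lower and 1 was higher in males and 0 were called in females (5 at an unadjusted p under 0.05). Of 6 endothelial markers 0 were called (2 at an unadjusted p under 0.05 in each sex). The within-group deviations of the members had an r of 0.810 with the cardiomyocyte markers, 0.211 with the leukocyte markers, 0.268 with the fibroblast markers and -0.844 with the endothelial markers. They also had an r of 0.853 with the array signal, and the part of this signal in the correlations with the markers was not tested. The part of cell composition in the differences of the members was not tested.

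To see whether landiolol changed these genes after CLP, CLP plus landiolol was compared with CLP. No member passed the FDR of 5% in limma, in males or in females, where 1.56% and 0.0945% of all probes passed it. At an unadjusted p under 0.05 there were 2 higher and 1 lower in males (4.05% of the members, against 14.8% of all probes in either direction) and 1 higher and 1 lower in females (2.7%, against 9.34%). Normexp background correction and the table of the authors also gave 0 calls in both sexes. The median of the members was -0.05 in males and -0.01 in females.

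The smallest p in males was that of Mrps35, a small subunit protein without a bacterial counterpart. Its levels were 12.29, 12.55, 12.55, 12.56 and 12.90 in CLP and between 12.69 and 13.29, with a median of 13.07, in the 6 rats with landiolol. The difference was +0.47 (SE 0.17, adjusted p = 0.20) and the groups overlapped by 1 CLP rat. The other probe of Mrps35 had the opposite sign, at -0.46 in males and -0.33 in females, and was not called either. Its mean log2 level was 5.12, and it was well above background on 13 male and 13 female arrays. Mrpl20 was the only member whose groups did not overlap in males (1.35% of the members, against 2.26% of all probes). It was at 13.24 to 13.41 in CLP and at 13.46 to 13.61 with landiolol, a difference of +0.18 (adjusted p = 0.32). Mrps6 was at +0.26 (adjusted p = 0.36).

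Mrps11 was lower with landiolol than with CLP alone in each sex, though not past the threshold. The difference was -0.24 (SE 0.10, adjusted p = 0.27) in males and -0.34 (SE 0.13, adjusted p = 0.41) in females. In females its levels were 9.80, 9.96, 10.08, 10.19 and 10.30 in CLP and 9.51 to 9.88, with a median of 9.77, with landiolol. In females Mrpl47 was at +0.58 (SE 0.25, adjusted p = 0.49), Mrps26 at +0.27 (adjusted p = 0.62) and Mrps35, by its reported probe, at +0.29 (adjusted p = 0.67). When 1 array was left out, Mrpl47 ranged from +0.29 (without female CLP replicate 5) to +0.73, Mrps26 from +0.20 to +0.38 and Mrps35 from +0.17 (without female CLP plus landiolol replicate 5) to +0.38. No female member had groups that did not overlap, where 1.15% of all probes did.

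For Mrpl12 the difference between landiolol and CLP can be read from the levels. The 6 male rats with landiolol lay between 14.44 and 14.84 (median 14.81) and the 5 male CLP rats between 14.53 and 14.89. The 6 female rats with landiolol lay between 13.91 and 14.65 (median 14.00) and the 5 female CLP rats between 14.04 and 14.33. The treated rats thus overlapped with the CLP rats in both sexes, and all of them were under the lowest sham rat of their sex.

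CLP plus landiolol was also set against sham, with the same sham arrays as CLP vs sham, so that the 2 comparisons are not independent. In males 3 members were called at 1%, all lower (4.05%, against 4.15% of all probes in either direction and 1.76% that were lower), and 8 were lower at 5% (10.8%, against 4.72%). Mrpl12 was at -0.76 (SE 0.10, adjusted p = 2.5e-04), Mrpl34 at -0.58 (adjusted p = 0.0041) and Mrpl38 at -0.61 (adjusted p = 0.0051). The male levels of Mrpl38 with landiolol ran from 10.70 to 11.04 (median 10.83), all below the lowest sham rat at 11.11. Mrpl19 was at -0.49 (adjusted p = 0.013). When 1 array was left out, Mrpl12 was called in 16 of 16 fits, Mrpl34 in 10 (adjusted p between 0.0025 and 0.013) and Mrpl38 in 8 (adjusted p between 0.0025 and 0.016). Without male sham replicate 3, 4 or 5 or male CLP plus landiolol replicate 1, a single member was called.

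In females Mrpl12 was called lower, at -0.84 (SE 0.14, adjusted p = 0.0013), as 1 of 74 members (1.35%, against 5.25% of all probes in either direction and 2.24% that were lower), and at 5% 11 were lower (14.9%, against 5.75%) and 1 higher. The higher one was Mrpl32, whose 6 landiolol rats were between 12.22 and 12.52 (median 12.29), all above the highest sham rat at 12.06. The difference was +0.56 (SE 0.14, adjusted p = 0.013). Mrpl34 was at -0.51 (adjusted p = 0.017) and Mrpl19 at -0.47 (adjusted p = 0.022). Female sham and female CLP plus landiolol shared no row of the slides, and with the row as a term no member was called, Mrpl12 being at -0.70 (adjusted p = 0.37).

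The study put both sexes through the same design, and the difference between the sexes in the effect of CLP and of landiolol was tested on the 32 arrays normalised together. No member and no other probe passed the FDR of 5%, so that the share of the 24768 probes called was 0% for the effect of CLP and 0% for that of landiolol. Of the members, 0 had an unadjusted p under 0.05 in either. The sexes were on different slides, so that a difference in level between them cannot be separated from the slide. Mrpl32 had the smallest p in both tests. For CLP vs sham the male minus female difference was -0.28 (adjusted p = 0.9999) and for landiolol vs CLP -0.32 (adjusted p = 0.97). Mrps34 was at +0.21 for CLP vs sham and Mrps6 at +0.36 for landiolol vs CLP. A p that misses the threshold does not show that the sexes responded alike.

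Across the 74 genes, the male and female CLP differences had a Pearson r of 0.749, and 58 genes had the same sign, 54 of them negative in both. Over the 24768 probes kept in both sexes, r was 0.782 and 76.4% had the same sign. The members were near all probes in this respect, and genes are not independent replicates. For landiolol vs CLP r was 0.471 over the members and 0.410 over all probes.

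**Figure D4:**
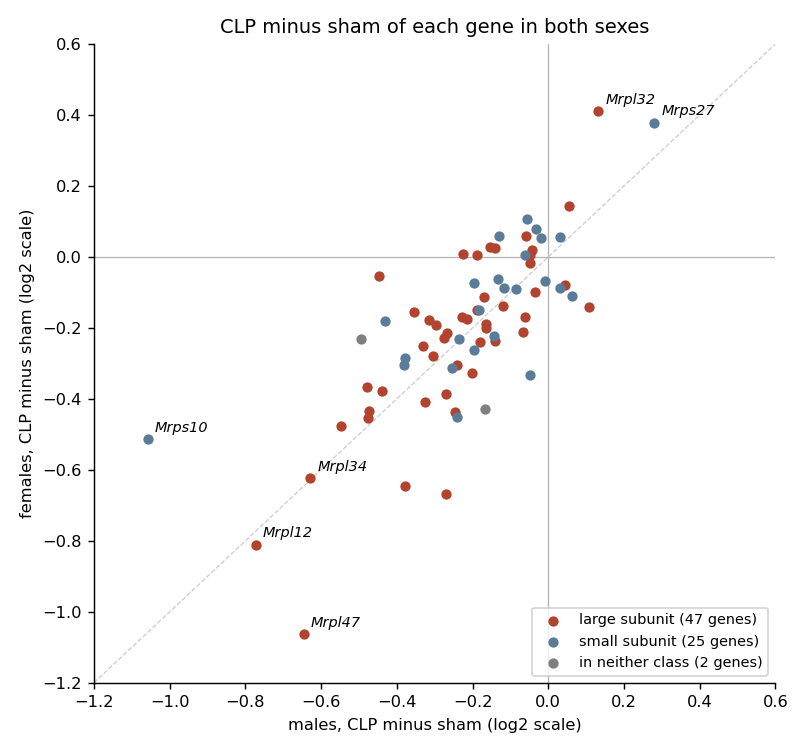
Log2 difference between CLP and sham in females (y axis) against that in males (x axis) for the 74 genes, coloured by subunit. Of the genes, 54 lie where both sexes are negative, with Mrpl12 and Mrpl34 below -0.6 in both.

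Other genes that serve the mitochondrial ribosome were taken from lists put together for this purpose. Of 5 further proteins of the ribosome under other names, all had a negative CLP difference in both sexes and 0 were called, with 1 at an unadjusted p under 0.05 in each sex. Dap3, a small subunit protein that binds GTP, was at -0.22 in males and -0.14 in females. Of 15 translation factors, Taco1, an activator of the translation of a cytochrome oxidase subunit, was lower in males (-0.61, adjusted p = 0.0030) and was at -0.63 (adjusted p = 0.057) in females, where 0 were called and 2 had an unadjusted p under 0.05, both lower. Tufm, the elongation factor that brings tRNAs to the ribosome, was at -0.33 (adjusted p = 0.077) and -0.09.

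Of 26 assembly factors tested, Mettl17, which is needed for the small subunit, was lower in males (-0.54, adjusted p = 0.0074) and females (-0.62, adjusted p = 0.0072). Mrm2, a methyltransferase of the large ribosomal RNA, was lower in males (-0.96, adjusted p = 0.0067) and at -0.82 (adjusted p = 0.050) in females. The median of the assembly factors was -0.07 in males and -0.04 in females. Of the mitochondrial tRNA synthetases and related enzymes, 19 tested in males and 20 in females, 0 were called, with 3 lower at an unadjusted p under 0.05 in each sex and 1 higher in males. Qrsl1, which helps to charge the glutamine tRNA, was at -1.34 (adjusted p = 0.012) and -1.22 (adjusted p = 0.019). Of 10 genes of mitochondrial transcription 0 were called, with 1 higher and 1 lower at an unadjusted p under 0.05 in males and 1 higher and 2 lower in females. Polrmt, the mitochondrial RNA polymerase, was at -0.44 (adjusted p = 0.010) in males and -0.45 (adjusted p = 0.056) in females, and Tfam, which packs the mitochondrial genome, at +0.21 and +0.10. Of 14 genes that mark mitochondrial content, Tomm22 of the import channel was lower in males (-0.43, adjusted p = 0.0077) and Hspe1, a chaperonin, in females (-0.69, adjusted p = 0.0085). The median of these content genes was -0.23 in males and -0.26 in females. The medians were -0.22 and -0.14 for the further ribosome proteins and -0.24 and -0.17 for the translation factors. For the synthetases they were -0.15 and -0.10, and for mitochondrial transcription +0.001 and +0.08.

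Of the lists described here apart from the marker genes, the regulators held the largest differences. Of 11 regulators of mitochondrial genes, 4 were called in males and 5 in females, all lower (against 3.94% and 1.82% of all probes), and a further 2 in males and 1 in females were higher at an unadjusted p under 0.05. Perm1, a muscle regulator of the PGC-1 and ERR pathway, was at 13.43 ± 0.26 (SD, n = 5) in male sham and 10.27 ± 0.76 (SD, n = 5) in male CLP, a difference of -3.15 (SE 0.35, adjusted p = 4.1e-05). In females it was at -2.61 (SE 0.39, adjusted p = 7.4e-04). The coactivator Ppargc1b was at -2.65 and -1.70, the nuclear receptor Ppara at -1.27 and -0.92 and the receptor Esrra at -0.67 and -0.86. Ppargc1a, the best known coactivator of mitochondrial genes, was at -1.03 (SE 0.47, adjusted p = 0.16) in males and -1.54 (SE 0.28, adjusted p = 0.0030) in females. Myc, a transcription factor of growth genes, was at 11.79 ± 0.42 (SD, n = 5) in male sham and 12.68 ± 0.72 (SD, n = 5) in male CLP, and at 11.56 ± 1.09 and 12.85 ± 0.76 in the females. The differences were +0.89 (SE 0.36, adjusted p = 0.11) and +1.29 (SE 0.50, adjusted p = 0.12). The NRF1, GABPA and YY1 factors whose letters were sought in the promoters did not pass the test. Nrf1 was at +0.28 (adjusted p = 0.22) in males and +0.13 (adjusted p = 0.79) in females, Gabpa at -0.18 (adjusted p = 0.41) and -0.34 (adjusted p = 0.16) and Yy1 at +0.14 (adjusted p = 0.73) and -0.14 (adjusted p = 0.77). In male landiolol vs CLP, Perm1 was higher (+1.43, adjusted p = 0.046), a change that no member shared past the threshold.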

How the data were processed

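RNA of 32 left ventricles was measured on 1-colour (Cy3) Agilent arrays. The authors deposited the scanner output made with Agilent Feature Extraction 10.5, whose processed intensity per spot is background-subtracted and detrended, under another protocol on 1 female slide (8 arrays) than on the other 24 arrays. The authors also deposited log2 values that were quantile-normalised and filtered, which served as an alternative. Groups came from the labels, and replicate numbers from the order of the samples.

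Outlier spots were left out, and log2 processed intensities were averaged by probe and quantile-normalised within each sex. A probe was kept when 80% or more of the arrays in any group were well above background for it (25864 in males, 25394 in females). The 3 groups of a sex were compared in a model of limma 3.58.1 under R 4.3.3. The p-values were adjusted over all probes kept, with an FDR of 1% against sham and 5% otherwise. The study used SAM, which was not run here. Per comparison, members past the FDR were named, or the 4 with the smallest p, and further genes were chosen after their values were seen. The members and lists were chosen with earlier results of these data known. Permutation tests used SciPy 1.17.1, files were read with the R package data.table (version 1.17.8) and figures were drawn with matplotlib 3.10.9. The fits were tested on simulated data. Probe coordinates are of rn4, per the file headers, and promoters of GRCr8. The number of arrays limits the precision, and the limma p-values set a difference between groups against the spread between rats within groups.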

Additional observations from a re-analysis of the deposited data

Results flagged for a closer look

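In 5 of the 126 groups of values tested, the highest or lowest rat stood apart from the others of its group by more than Dixon's 95% value allows, and chance flags about 1 in 20 groups. Mrpl34 in male sham was 13.60 in replicate 1, where the next lowest was 13.86. Mrpl38 in female CLP plus landiolol was 10.99 in replicate 4, where the next highest was 10.56. Mrpl54 in female CLP was 14.54 in replicate 5 (next 14.20), Mrps26 in female CLP was 13.40 in replicate 1 (next 13.00), and Mrps35 in female CLP plus landiolol was 13.94 in replicate 5 (next 13.32).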

How the results depend on the processing

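No paired analysis was possible because the labels carry no replicate numbers and the numbers used here follow the order of the samples. Of 260 counts of members called under an alternative, 213 were within 1.5 times the count as reported or equal to it. Many of these were 0 in both. For CLP vs sham the count was within this limit in 23 of 29 alternatives in males and 10 of 29 in females. For CLP plus landiolol vs sham it was so in 19 of 29 in males and 17 of 29 in females. The 0 counts for landiolol vs CLP and for the sex differences stayed at 0 under every alternative run. By its reported probe, no named member changed sign or was called in the opposite direction in 1008 values. Most of these values come from fits that left out 1 array. They do not cover other probes of a gene, such as that of Mrps35 with the opposite sign for landiolol vs CLP.

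For male CLP vs sham (2 members), the count was 12 at an FDR of 5%, 7 with normexp background correction, 9 in the table of the authors, 5 with a trended prior and 11 with the array signal as a term. It was 2 to 4 when 1 array was left out, with 4 without male CLP replicate 1. For female CLP vs sham (2 members), it was 5 at 5%, 1 with scaling to the 75th percentile, 0 with the row as a term, 4 with the array signal, 5 with the 32 arrays normalised together and 1 with only the 2 groups in the model. It was 1 to 2 when 1 array was left out, and remained 2 only without female sham replicate 3, female CLP replicate 2 or female CLP plus landiolol replicate 4.

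For male CLP plus landiolol vs sham (3 members), it was 8 at 5%, 5 with normexp, 6 in the table of the authors, 5 with a trended prior, 5 with the array signal, 1 with only the 2 groups, and 1 to 4 when 1 array was left out. For female CLP plus landiolol vs sham (1 member), it was 12 at 5%, 2 with any probe of a gene, 4 with normexp, 6 in the table of the authors, 3 with a trended prior, 0 with the row as a term, 2 with the array signal, 9 with the 32 arrays together, 2 with only the 2 groups, and 1 to 2 when 1 array was left out (2 without female sham replicate 2 or 4 or female CLP replicate 5). The cause of these changes was not tested, except that the counts at 5% follow from the threshold. Apart from the FDR of 5%, the share of all probes called under the alternatives of this section was not determined. The counts are thus not read as a result about the members.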
